A study of Sus scrofa with 23 samples.

Results

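Backfat gene expression was compared between group IV (+cDDGS+coconut oil) and group III (+cDDGS+beef tallow), the pair of diets in which corn dried distillers grains with solubles (cDDGS) were combined with a saturated fat. The members were the 10 pigs whose labels name one of these diets, 5 in each group, out of 23 sequenced pigs. Group III held pigs 41 and 43 (females) and 45, 46 and 48 (males), and group IV held pigs 49, 53 and 55 (females) and 52 and 54 (males). All 10 pigs were crossbred fatteners and all received cDDGS, so the fat was the only dietary difference named in the labels. The study's methods describe the diets as equal in energy and nitrogen, the males as barrows (castrated), and the extracted RNA as partly degraded. The other 13 pigs received rapeseed oil, 6 with cDDGS (group II) and 7 without it (group I), and are set beside these groups where their level helps to read a value.

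Backfat is the subcutaneous fat of the back, and in pigs it is the main site where fatty acids are made from glucose and stored as triglyceride. Beef tallow brings mostly long-chain fatty acids such as palmitic, stearic and oleic acid, while coconut oil is rich in medium-chain saturated acids, lauric acid above all. The medium-chain acids shorter than lauric acid are largely oxidised in the liver after absorption. Lauric acid is a known ligand of the G protein-coupled receptor GPR84 and is often discussed as a stimulus of Toll-like receptors on immune cells. The comparison therefore asks whether the kind of added fat is reflected in the gene expression of the fat tissue. In the study's own measurements, backfat from group IV held more saturated and less monounsaturated fatty acid than backfat from group III. Only RNA was compared here. By the feed composition the study gives, the coconut oil feed also held more saturated and less monounsaturated and polyunsaturated fatty acid. Chain length therefore cannot be told apart from the degree of saturation.

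Expression was read from the deposited counts of reads per gene and is given as CPM, counts per 1000000 counted reads after TMM normalization (a scaling factor per library) over all 23 pigs. The gene counts of a library summed to 3768842 to 7979426 in group III and to 3697673 to 4865260 in group IV, so 1 CPM stood for only a few reads. Uniquely mapped reads that fell on no annotated gene, called reads outside genes, took a share of 51.1 to 60.8% in group III and 57.7 to 71.3% in group IV (two-sided exact permutation test, p = 0.0476, adjusted p = 0.476 over 40 tests of 20 library measures against diet and sex). Adipocyte markers were present in every pig, with a summed level of 2209 to 2741 CPM with beef tallow and 2031 to 2544 CPM with coconut oil over the 4 of 8 listed markers that could be matched (PLIN1, LIPE, CIDEC and PNPLA2). Single pigs stood apart for whole groups of genes, and these are named with the results they touch: pig 48 for genes of fat synthesis and respiration, pig 49 for interferon-response genes, and pigs 46 and 52 for skeletal muscle genes.

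No gene passed the test between the diets. Over 10230 genes, edgeR's quasi-likelihood test gave 0 DEGs (0.0%), and the smallest adjusted p-value was 0.997. A DEG had to pass 0.05 after Benjamini-Hochberg adjustment and differ by more than 1.3-fold. DESeq2 and limma-voom also gave 0 DEGs, with smallest adjusted p-values of 0.131 and 0.479. The unadjusted p-value was under 0.05 for 421 genes (4.12%) in edgeR, 235 of them (2.3%) higher and 186 (1.82%) lower with coconut oil, where 5% of the tested genes would be 511.5. The corresponding counts were 497 of 17283 genes (2.88%) in DESeq2 and 723 of 10230 in limma-voom. When the libraries were scaled by their totals alone, without TMM, 321 genes were higher and 37 lower, so the split between the directions depended on the scaling. The median log2 fold change of all tested genes was then 0.091. With TMM, the log2 fold change was above 0 for 49.8% of the genes and its median was -0.0014.

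The precision of these estimates bounds the size of a difference that could have been missed. The median standard error of a log2 fold change was 0.21, and the 95% interval lay within a 2-fold difference in either direction for 8652 genes (84.6%) and within a 1.5-fold difference for 4614 genes (45.1%). An estimate beyond 2-fold was found for 100 genes. The 95% intervals hold for single genes and are not adjusted for the number of genes tested. A DEG had to pass the adjusted threshold, so the intervals do not give the smallest detectable difference. With 5 pigs per diet, estimates beyond 2-fold also went uncalled. KYNU, for example, had a log2 fold change of 1.23 (95% interval from 0.68 to 1.78, edgeR's adjusted p = 0.997). Without regard to any p-value, 25 genes (0.244%) were higher in every coconut oil pig than in every beef tallow pig and 38 (0.371%) were lower.

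**Figure D1:**
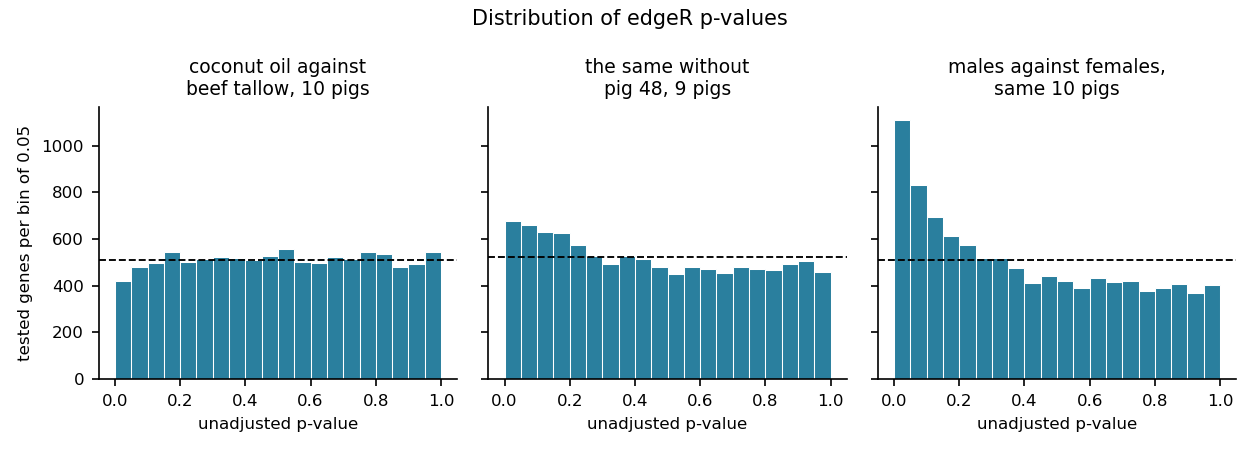
Number of tested genes (y axis) in each bin of 0.05 of the unadjusted edgeR p-value (x axis) for coconut oil against beef tallow in 10 pigs (left), for the same comparison without pig 48 (middle) and for males against females in the same 10 pigs (right), with a dashed line at the count a flat distribution would give. The first bin holds 421 genes on the left, 678 in the middle (6.5% of the 10436 genes tested without pig 48) and 1111 on the right.

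The 12 genes with a symbol and the lowest unadjusted p-values among those higher with coconut oil have varied known roles, and none passed the test. KYNU, kynureninase of the tryptophan breakdown pathway, stood at 3.77, 1.39, 2.58, 3.23 and 3.33 CPM in pigs 41, 43, 45, 46 and 48 of the beef tallow group and at 6.49, 6.19, 6.40, 6.96 and 6.72 CPM in pigs 49, 52, 53, 54 and 55 of the coconut oil group. The groups did not overlap. At this level each value rests on few reads, so the closeness of the coconut oil pigs to each other is not read as a result. The log2 fold change was 1.23 (SE 0.25, 95% interval from 0.68 to 1.78, edgeR's adjusted p = 0.997). The two-sided exact permutation test on log2(CPM + 0.5) gave p = 0.00794, the smallest value that 5 pigs against 5 allow. KYNU and the other leading genes were chosen for low p-values in these same pigs. Their permutation p-values are therefore a description and not separate support.

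GIMAP4, a GTPase of lymphocytes, was measured at 16.2, 18.5, 9.45, 19.2 and 15.0 CPM with beef tallow and 23.0, 44.4, 27.2, 30.9 and 31.7 CPM with coconut oil, in the same order of pigs. Every coconut oil pig was above every beef tallow pig (log2 fold change 1.01, SE 0.22, adjusted p = 0.997). DOCK2, which activates Rac in migrating leukocytes, gave 2.03, 2.16, 1.503, 2.35 and 3.33 CPM against 4.74, 5.42, 4.32, 5.15 and 3.60 CPM, with pig 48 just below the lowest coconut oil pig (log2 fold change 1.03, SE 0.25, unadjusted p = 0.00128, exact permutation p = 0.00794). PTPN6, the phosphatase SHP-1 of blood cells, gave 4.06, 8.94, 6.44, 6.90 and 4.28 CPM against 12.5, 10.8, 13.9, 9.69 and 10.1 CPM, again without overlap (log2 fold change 0.89, SE 0.23, unadjusted p = 0.00185, exact permutation p = 0.00794). PARVG, an adhesion protein of blood cells, averaged 1.07 ± 0.223 CPM with beef tallow and 2.50 ± 0.370 CPM with coconut oil (SD, n = 5 each) and also did not overlap.

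The actin-bundling LCP1 of leukocytes showed a wider spread. It was at 31.9, 25.1, 28.8, 37.7 and 39.7 CPM with beef tallow and at 42.7, 163, 49.3, 34.8 and 127 CPM with coconut oil, with pigs 52 and 55 far above the others and pig 54 inside the beef tallow range (log2 fold change 1.37). The immune adaptor PIK3AP1 had a similar shape, with 33.6 and 30.7 CPM in pigs 52 and 55 and between 15.2 and 20.6 CPM in the other coconut oil pigs, against 10.8 to 16.4 CPM with beef tallow. In whole tissue, fewer cells of a type and less RNA per cell cannot be told apart. The summed level of the macrophage markers, 10 matched of 12 listed and none at 0 in all pigs, overlapped between the diets, from 87.6 to 247.1 CPM with beef tallow and from 96.9 to 242.6 CPM with coconut oil (exact permutation p = 0.706). Pigs 52 and 55 had macrophage sums of 241.6 and 156 CPM. The summed T cell markers, 6 matched of 8 listed, ran from 6.01 to 16.9 CPM and from 8.99 to 15.4 CPM (exact permutation p = 0.151), and B cell markers stayed at or below 1.23 CPM in all 10 pigs. The part of blood cell number in the values of these genes was not tested.

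CTCFL, a paralog of the chromatin factor CTCF known mainly from testis, stood at 8.69, 8.63, 11.2, 8.07 and 7.36 CPM with beef tallow and 13.5, 13.2, 24.3, 16.0 and 30.0 CPM with coconut oil, without overlap (log2 fold change 1.16, SE 0.25, unadjusted p = 0.000388, exact permutation p = 0.00794). AZGP1, a secreted glycoprotein of adipocytes linked to lipid mobilisation, was at 2.03, 2.00, 1.72, 2.35 and 3.56 CPM with beef tallow and 2.50, 11.9, 1.92, 14.8 and 10.3 CPM with coconut oil. Pigs 52, 54 and 55 were well above all others, while pigs 49 and 53 lay within the beef tallow range (log2 fold change 1.81, 95% interval from 0.69 to 2.94). PLK2, a stress-induced kinase, averaged 49.6 ± 10.3 and 85.8 ± 19.0 CPM (SD, n = 5 each), and GDF11, a ligand of the TGF-beta family, 22.0 ± 4.32 and 33.1 ± 6.27 CPM. A gene with only a clone-based name, TMP-CH242-74M17.4, averaged 6.56 ± 3.42 and 13.9 ± 4.19 CPM.

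**Figure D2:**
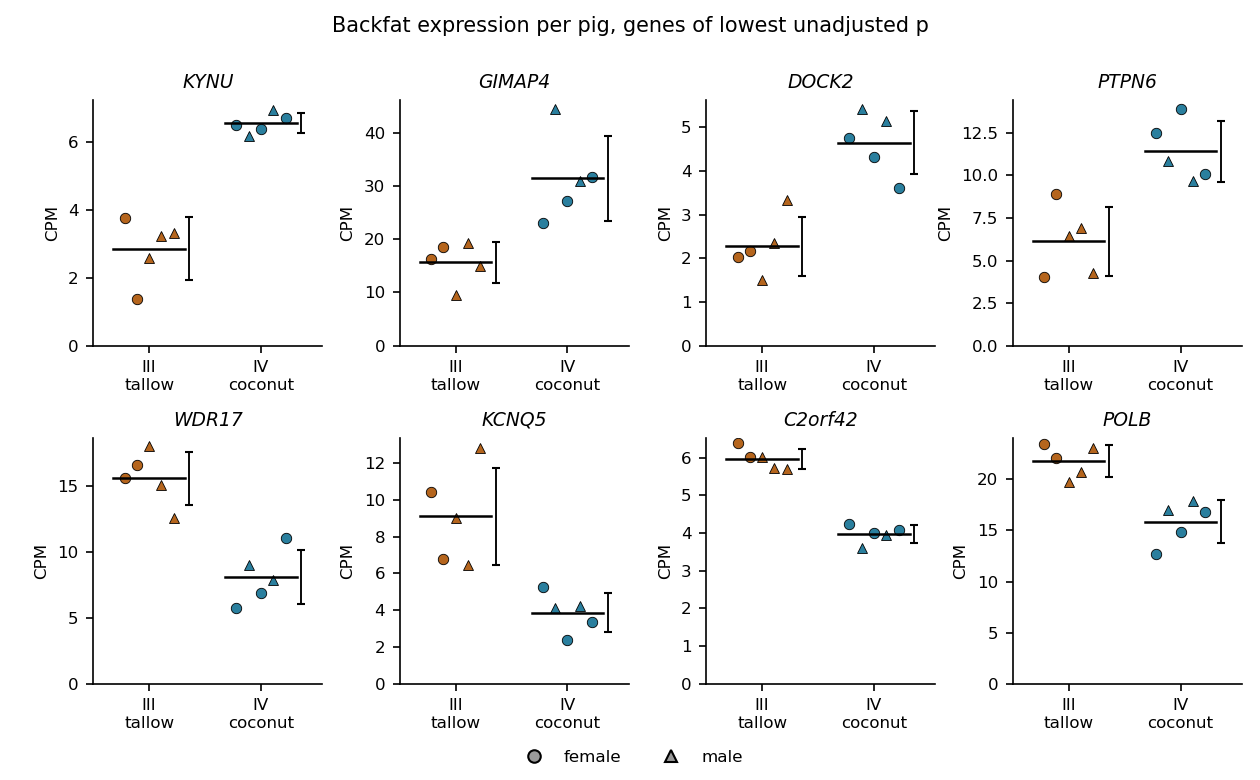
Expression in CPM (y axis, linear from 0) in each beef tallow pig (III) and coconut oil pig (IV) for 4 higher and 4 lower genes picked from the 24 named ones because their groups did not overlap (CREB5, CYP2B6 and TMEM126A, with lower p-values than C2orf42 and POLB, overlap and are not drawn); circles are females, triangles males, bars the group mean and whiskers 1 SD (n = 5). None of these 8 genes passed the adjusted threshold (smallest adjusted p = 0.997).

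Of the 12 named genes lower with coconut oil, 5 did not overlap between the groups (0.371% of all tested genes), and of the 12 higher ones 6 did not (0.244%), which is largely set by their choice on the lowest p-values. WDR17, a protein with WD repeats, had the lowest p-value, with 15.6, 16.6, 18.0, 15.1 and 12.6 CPM in the beef tallow pigs and 5.74, 9.03, 6.88, 7.87 and 11.04 CPM in the coconut oil pigs. Its log2 fold change was -0.93 (SE 0.20, 95% interval from -1.36 to -0.51, unadjusted p = 0.000374, adjusted p = 0.997, exact permutation p = 0.00794). The voltage-gated potassium channel gene KCNQ5 gave 10.4, 6.78, 9.02, 6.45 and 12.8 CPM against 5.24, 4.13, 2.40, 4.24 and 3.36 CPM (log2 fold change -1.22, SE 0.27, unadjusted p = 0.000553, exact permutation p = 0.00794). Both were lower in every coconut oil pig than in every beef tallow pig.

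Smaller differences, also without overlap, were found for C2orf42, POLB and H3F3A. C2orf42 lay between 5.70 and 6.38 CPM with beef tallow and between 3.61 and 4.25 CPM with coconut oil. POLB, the DNA polymerase of base excision repair, lay between 19.7 and 23.5 CPM and between 12.7 and 17.9 CPM. H3F3A, which encodes the replacement histone H3.3, lay between 119.9 and 154 CPM and between 96.3 and 113 CPM. Another gene and several pseudogenes are nearly identical to H3F3A, and reads that map to several places were left out of the counts, so its level is uncertain. CYP2B6, a cytochrome P450 that oxidises drugs and other lipophilic compounds, was at 69.0, 93.7, 92.7, 44.0 and 43.9 CPM with beef tallow against 51.9, 34.1, 21.9, 31.8 and 44.9 CPM with coconut oil. Pigs 46 and 48 lay below pigs 49 and 55, so the groups overlapped (log2 fold change -0.89, SE 0.27, unadjusted p = 0.00585, exact permutation p = 0.0476). The transcription factor gene CREB5 averaged 9.93 ± 4.44 CPM with beef tallow and 4.39 ± 1.77 CPM with coconut oil (SD, n = 5 each). TMEM126A, USP53, WASHC1, NUDT6 and ARL6IP6 had log2 fold changes from -0.54 to -0.43, each with overlapping groups.

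Genes of fatty acid synthesis were described by a list of 18 genes, of which 13 (14 identifiers) could be tested. None passed the adjusted threshold, none had an unadjusted p-value under 0.05, 12 of 14 log2 fold changes were above 0, and the median was 0.24 against -0.0014 for all tested genes. A single animal shaped these numbers. FASN, which encodes fatty acid synthase, was counted on a pair of identifiers, and on ENSSSCG00000029944 it stood at 2235, 2058, 3076, 3259 and 8527 CPM in the beef tallow pigs and at 3414, 5599, 4307, 4417 and 4875 CPM in the coconut oil pigs. Every coconut oil pig was above 4 of the 5 beef tallow pigs, and pig 48 was above all of them. All coconut oil pigs were above the beef tallow pigs other than pig 48 for 103 of all tested genes (1.01%) and for 2 of these 14 identifiers. The log2 fold change over all 10 pigs was 0.26 (SE 0.35, 95% interval from -0.49 to 1.00, adjusted p = 0.997). On the other identifier, ENSSSCG00000023044, the order was nearly the same, with 869 to 1339.5 CPM in the beef tallow pigs other than pig 48, 3229 CPM in pig 48 and 1245 to 2101 CPM with coconut oil.

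The other enzymes of the pathway repeated this picture. SCD, the desaturase that turns stearic into oleic acid, was at 8261, 2751, 3823, 10514 and 26918 CPM with beef tallow and 12366, 23719.7, 13540.2, 8325 and 11209 CPM with coconut oil (log2 fold change 0.42, 95% interval from -0.70 to 1.545). ACLY, which cleaves citrate to acetyl-CoA, was at 211, 151, 104, 199 and 1417 CPM and 164, 1138, 485, 334 and 329 CPM (log2 fold change 0.26, 95% interval from -1.22 to 1.74). Pig 48 was the highest of all 10 pigs for both genes, and pig 52 was the highest of the coconut oil pigs. ACACA, acetyl-CoA carboxylase, ranged from 396 to 597 CPM in the beef tallow pigs other than pig 48, was at 1311 CPM in pig 48, and ranged from 396 to 1032 CPM with coconut oil. Malic enzyme ME1, a source of NADPH, was at 288, 299, 588, 582 and 2358 CPM and 542, 1127, 761, 558 and 632 CPM, so that its mean was higher with beef tallow (log2 fold change -0.16) although only pig 48 lay above the range of the coconut oil pigs. FADS1, the delta-5 desaturase, had the lowest p-value of the list (log2 fold change 0.53, unadjusted p = 0.134, exact permutation p = 0.365), at 4.84 to 16.8 CPM over the 10 pigs.

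Pig 48 had the highest value of the 10 pigs for 11 of the 14 identifiers of this list (78.6%), against 1369 of all 10230 tested genes (13.4%). Without pig 48, all 14 log2 fold changes were above 0, their median was 0.66 (all tested genes, -0.0034), and 11 of 14 had an unadjusted p-value under 0.05 in the direction of coconut oil, where 3.7% of all tested genes did. On these 9 pigs the log2 fold change was 0.78 for FASN (edgeR's adjusted p = 0.654), 1.57 for ACLY, 1.14 for SCD, 0.66 for ACACA and 0.74 for ME1. None of these passed adjustment, and the smallest adjusted p-value of the list was 0.654. Taking away the highest pig lowers the beef tallow mean of these genes by construction. Leaving out any other pig gave medians from 0.086 to 0.30 for the list. Pig 48 also had the lowest share of reads outside genes of the 10 pigs (51.1%) and the highest summed adipocyte markers (2741 CPM), and pig 54 the highest share of reads outside genes (71.3%). With that share as a covariate and all 10 pigs, the median of the list was 0.84, against 0.40 with sex as the covariate. The log2 fold change was then 0.91 for FASN and 1.42 for SCD (edgeR's adjusted p = 0.999 for both), so the size of the difference depended on this covariate as well as on pig 48. The part of the adipocyte marker level in the values of pig 48 was not tested. For comparison, the 7 pigs of group I had a mean of 7056 CPM of FASN (3931 to 10583) and the 6 pigs of group II a mean of 3525 CPM (1474 to 4637).

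**Figure D3:**
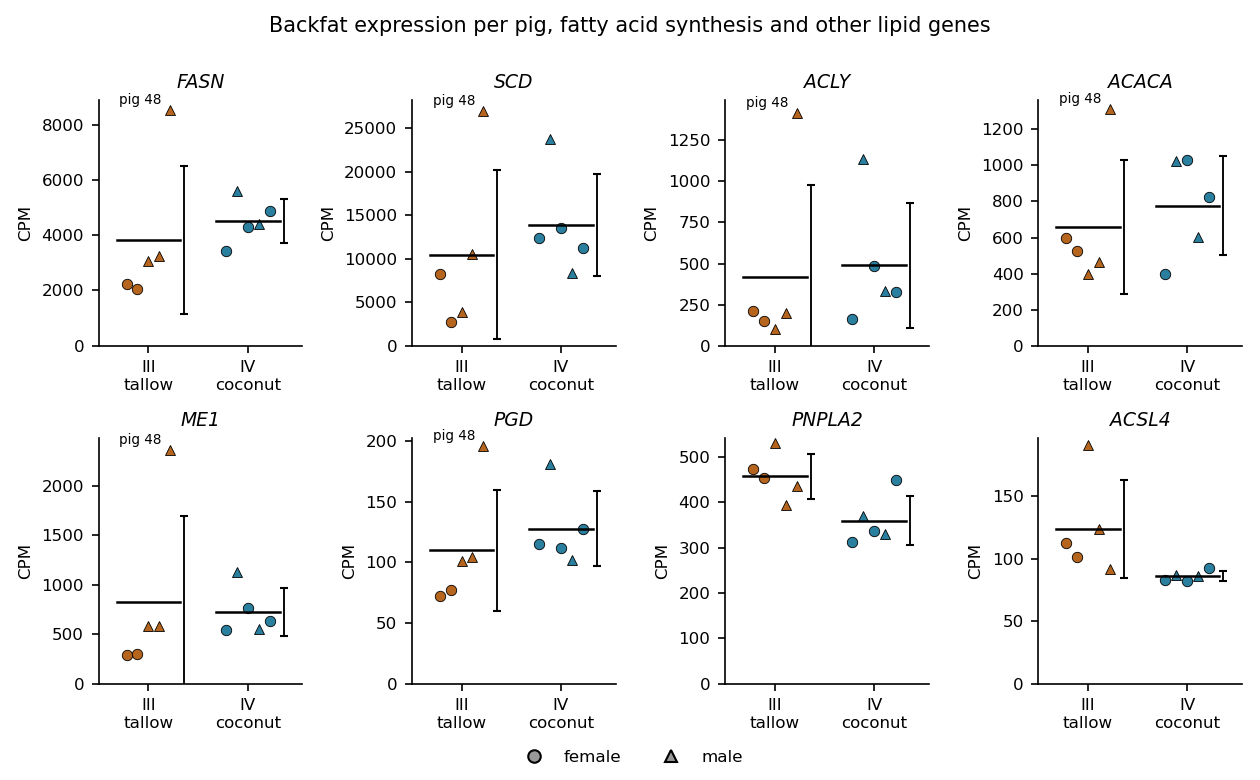
Expression in CPM (y axis, linear from 0) in each beef tallow pig (III) and coconut oil pig (IV) for 6 genes of fatty acid synthesis, the triglyceride lipase gene PNPLA2 and the acyl-CoA synthetase gene ACSL4; circles are females, triangles males, bars the mean and whiskers 1 SD (n = 5), cut off at 0. Pig 48 is the highest of all 10 pigs in the 6 synthesis panels, and 4 of 5 coconut oil pigs lie below every beef tallow pig for PNPLA2.

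Of the genes that release stored fat, PNPLA2 had the lowest p-value. PNPLA2, which encodes adipose triglyceride lipase and starts lipolysis, was at 472, 453, 529, 393 and 436 CPM with beef tallow and 313, 368, 337, 329 and 448 CPM with coconut oil. All coconut oil pigs except pig 55 were below every beef tallow pig. The log2 fold change was -0.33 (SE 0.14, 95% interval from -0.63 to -0.039, unadjusted p = 0.0295, adjusted p = 0.997, exact permutation p = 0.0238). It was the only one of the 8 tested lipolysis genes with an unadjusted p-value under 0.05. Hormone-sensitive lipase LIPE averaged 525 and 459 CPM (log2 fold change -0.18) and monoglyceride lipase MGLL 299.9 and 290.1 CPM (log2 fold change -0.033). The list's median was -0.039, and 0.055 with scaling by library totals, where that of all tested genes was 0.091.

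Of 23 tested genes of fatty acid oxidation, 8 had a log2 fold change above 0, and the median was -0.075. With scaling by library totals it was 0.035 (all tested genes, 0.091). An unadjusted p-value under 0.05 was found for 1 gene, lower with coconut oil (1.82% of all tested genes). Pig 48 was the highest of 10 for 8 of the 23 (34.8%, all tested genes 13.4%). Without it, 11 were above 0, the median was -0.0099, and 3 had an unadjusted p-value under 0.05, all higher with coconut oil (3.7% of all tested genes). ACADM, the dehydrogenase of medium-chain acyl-CoA, averaged 138 ± 25.1 CPM with beef tallow and 151 ± 23.1 CPM with coconut oil (SD, n = 5 each), with a 95% interval of the log2 fold change from -0.17 to 0.47. CPT1A, the gate for long-chain fatty acids into mitochondria, averaged 55.2 ± 14.2 and 54.6 ± 3.84 CPM, with an interval from -0.35 to 0.35. A difference of 1.5-fold or more lies outside both intervals. SLC25A20, the carrier of acylcarnitine, averaged 25.7 ± 3.00 and 20.7 ± 2.53 CPM (log2 fold change -0.29, unadjusted p = 0.0577, exact permutation p = 0.0317), and PDK4, the kinase that spares glucose during fat oxidation, 3747 and 3885 CPM (log2 fold change 0.065).

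Of the triglyceride synthesis and lipid droplet genes, 0 of 10 tested were at an unadjusted p-value under 0.05, 4 log2 fold changes were above 0 and the median was -0.11. The droplet coat protein gene PLIN1 was narrow in both groups, from 1009 to 1293 CPM and from 1117 to 1330.1 CPM, and its log2 fold change of 0.085 had a 95% interval from -0.19 to 0.36. FITM2, which directs triglyceride into droplets, ranged from 42.5 to 65.3 CPM and from 29.7 to 57.1 CPM. BSCL2 (seipin), a protein of droplet assembly, averaged 47.6 ± 12.4 and 38.0 ± 7.86 CPM (SD, n = 5 each), and DGAT1, the last enzyme of triglyceride synthesis, 12.7 ± 3.03 and 15.2 ± 2.33 CPM. Of the 8 tested genes of fatty acid uptake and carriage, only ACSL4 had an unadjusted p-value under 0.05. ACSL4 activates long-chain polyunsaturated fatty acids, and it was at 112, 101, 191, 124 and 91.4 CPM with beef tallow and 82.7, 87.2, 82.1, 86.0 and 92.6 CPM with coconut oil (log2 fold change -0.51, SE 0.18, unadjusted p = 0.0123, adjusted p = 0.997, exact permutation p = 0.0159). All beef tallow pigs except pig 48 were above every coconut oil pig, and pig 45 was the highest. Without pig 45 its log2 fold change was -0.31. LMF1, needed to mature lipases, averaged 21.3 ± 3.63 and 25.5 ± 5.13 CPM. LPL, CD36, ELOVL6, LEP and ADIPOQ were not analysed here because no name table used here pairs them with an identifier.

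Of the receptors and factors that sense fatty acids, none had an unadjusted p-value under 0.05. GPR84 was close to absent, with reads in 1 of 5 beef tallow pigs (0.238 CPM in pig 48) and 2 of 5 coconut oil pigs (0.258 CPM in pig 52 and 0.160 CPM in pig 53), and it was too low to test. TLR4 was at 6.09, 7.24, 3.86, 6.60 and 3.80 CPM with beef tallow and 5.49, 7.49, 4.80, 3.33 and 5.28 CPM with coconut oil (log2 fold change -0.063, 95% interval from -0.64 to 0.51), and TLR2 averaged 3.38 ± 0.937 and 2.27 ± 1.08 CPM (log2 fold change -0.56). FFAR4, the receptor for long-chain fatty acids, averaged 6.99 ± 2.26 and 4.73 ± 3.16 CPM, and its interval (from -1.38 to 0.26) includes differences beyond 2-fold. PPARG, the nuclear receptor that drives adipocyte differentiation, was at 141, 219.7, 169, 205 and 245 CPM and 284, 118, 128, 382 and 156 CPM, a spread of over 3-fold within the coconut oil group (log2 fold change 0.13). In the 13 tested genes of this list, 7 log2 fold changes were above 0 and the median was 0.014. Adipocyte identity and adipokine genes gave 0 of 12 with an unadjusted p-value under 0.05 and a median of -0.039. With scaling by library totals the median was 0.051 (all tested genes, 0.091). Among them were CEBPA with 61.1 ± 28.2 and 79.5 ± 17.9 CPM and the NAD-synthesis enzyme NAMPT with 188 ± 47.5 and 148 ± 32.8 CPM (SD, n = 5 each).

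Sterol synthesis and uptake genes had a median log2 fold change of 0.032 over 16 tested genes, with 0 at an unadjusted p-value under 0.05. LSS, lanosterol synthase, was at 70.7, 47.6, 45.7, 60.7 and 125 CPM with beef tallow and 78.9, 94.98, 86.4, 63.9 and 95.3 CPM with coconut oil, and CYP51A1, the next enzyme of the pathway, averaged 16.1 ± 3.96 and 18.4 ± 4.80 CPM (SD, n = 5 each). Pig 48 was again the highest of 10 for 11 of the 16 genes (68.8%). Without it, 14 of 16 were above 0, with a median of 0.27, and 3 had an unadjusted p-value under 0.05. ALAS1, the first enzyme of heme synthesis, averaged 17.8 ± 4.61 and 18.1 ± 3.31 CPM (SD, n = 5 each), a difference of less than 1 SD (log2 fold change 0.046, 95% interval from -0.40 to 0.49).

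Nuclear genes of the respiratory chain were mostly lower with coconut oil over all 10 pigs and mostly higher when pig 48 was left out. Of 27 tested genes, 19 had a log2 fold change below 0, and 2 had an unadjusted p-value under 0.05 (both lower with coconut oil, where 1.82% of all tested genes were). The median was -0.084, or 0.052 with scaling by library totals, where that of all tested genes was 0.091. COX4I1, a subunit of cytochrome c oxidase, was at 199, 238, 241, 223 and 269.6 CPM with beef tallow and 148, 180.4, 210.5, 163 and 216 CPM with coconut oil (log2 fold change -0.34, SE 0.14, unadjusted p = 0.0281, exact permutation p = 0.0317), and pigs 53 and 55 lay within the beef tallow range. NDUFS5, a subunit of complex I, was at 52.5, 82.3, 93.8, 69.8 and 46.3 CPM and 52.2, 43.9, 61.1, 46.6 and 49.9 CPM (log2 fold change -0.43, SE 0.19, unadjusted p = 0.038, exact permutation p = 0.0952), with the ranges overlapping at pigs 41 and 48. Pig 48 had the highest value of the 10 pigs for 21 of the 27 genes (77.8%). Without it, 20 of 27 log2 fold changes were above 0 and the median was 0.13, and with the share of reads outside genes as a covariate and all 10 pigs it was 0.21, so its sign depended on this animal and on that covariate. Leaving out any other pig gave medians from -0.17 to -0.027.

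**Figure D4:**
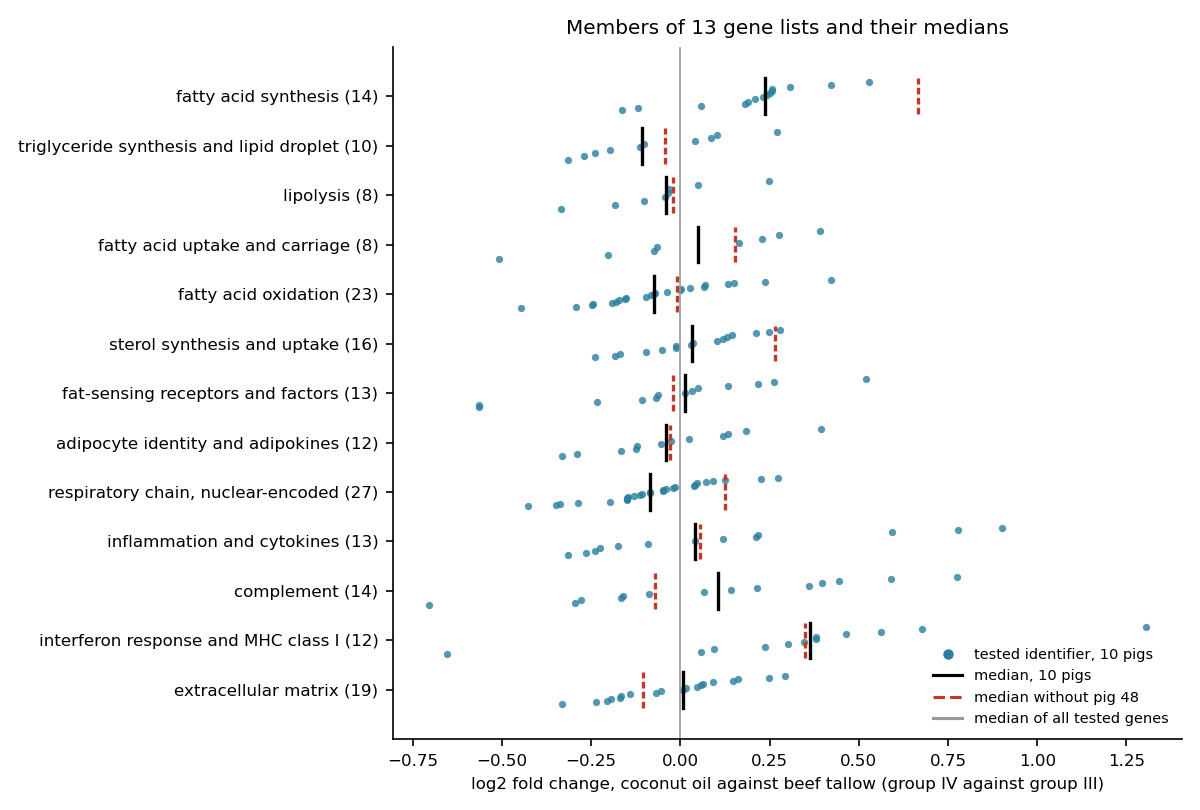
Log2 fold change of coconut oil against beef tallow (x axis) for every tested identifier of 13 gene lists (y axis, number tested in brackets), with the list median over 10 pigs (black), the median without pig 48 (red, dashed) and the median of all tested genes (grey line). The fatty acid synthesis median moves from 0.24 to 0.66 and the respiratory chain median from -0.084 to 0.13 when pig 48 is left out, and the sterol median moves from 0.032 to 0.27. With all pigs and scaling by library totals, the respiratory chain median is 0.052 and that of all tested genes 0.091.

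Interferon-response and MHC class I genes were mostly higher on average with coconut oil, and this rested on pig 49. Of 12 tested genes, 11 had a log2 fold change above 0 and the median was 0.36. RSAD2 (viperin), an antiviral protein induced by interferon, was at 16.5, 4.93, 8.59, 4.99 and 8.08 CPM with beef tallow and 74.4, 6.19, 11.2, 7.27 and 4.56 CPM with coconut oil, and MX1, an antiviral GTPase, at 42.6, 23.0, 20.6, 22.2 and 24.2 CPM and 109, 27.6, 26.1, 23.3 and 24.5 CPM. Pig 49 was far above the other 9 pigs for both genes. It was also the highest for IFIT1 (61.2 CPM, others up to 25.5 CPM), OAS2 (78.9 CPM, others up to 35.9 CPM) and MX2 (111 CPM, others up to 51.6 CPM), and for 7 of the 12 genes in all, against 853 of all 10230 tested genes (8.34%). Without pig 49 the median of the list was -0.011 and 6 of 12 were above 0. IRF1, a transcription factor of the interferon response, was the only member with an unadjusted p-value under 0.05, at 12.2, 9.40, 10.9, 12.2 and 14.5 CPM with beef tallow and 19.0, 12.4, 21.3, 14.2 and 13.4 CPM with coconut oil (log2 fold change 0.47, SE 0.19, unadjusted p = 0.0293, adjusted p = 0.997, exact permutation p = 0.0635). Pigs 49 and 53 were above all others. SLA-1, a classical MHC class I gene of the pig, pointed the other way with 96.9 ± 37.3 CPM with beef tallow and 61.3 ± 29.3 CPM with coconut oil (SD, n = 5 each), but class I genes are nearly identical to each other and their counts are uncertain.

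Inflammation and complement genes showed no shared direction. Of 13 tested inflammation and cytokine genes, 7 had a log2 fold change above 0 and 1, PTGS2, had an unadjusted p-value under 0.05. PTGS2, the inducible cyclooxygenase, was at 24.1, 9.40, 8.16, 6.60 and 14.5 CPM with beef tallow and 23.5, 9.03, 25.0, 22.1 and 34.1 CPM with coconut oil (log2 fold change 0.90, SE 0.37, unadjusted p = 0.0311, exact permutation p = 0.103). Pig 41 lay among the coconut oil values and pig 52 among the beef tallow values. The interleukin-1 receptor gene IL1R1 averaged 87.2 ± 27.7 and 69.3 ± 4.98 CPM (SD, n = 5 each), and IL6 was listed at 0 in all 10 pigs. Of 14 tested complement genes, 8 were above 0, 0 had an unadjusted p-value under 0.05, and the median of 0.10 was -0.17 without pig 53. C3, the central complement component, was at 12.5, 17.1, 37.8, 28.8 and 67.7 CPM with beef tallow and 44.2, 54.7, 140.0, 6.66 and 28.1 CPM with coconut oil, and pig 53 was the highest (log2 fold change 0.78, SE 0.60). With the share of reads outside genes as a covariate, C3 was the 1 gene called (0.00978% of 10230; log2 fold change 2.20, edgeR's adjusted p = 0.0316), and with sex as a further covariate, an alternative chosen after seeing the data, 0 genes were called (smallest adjusted p = 0.0572). C5AR1, the receptor for the C5a fragment, averaged 10.99 ± 3.64 and 11.5 ± 2.55 CPM, the macrophage complement receptor VSIG4 7.53 ± 3.79 and 8.33 ± 2.71 CPM, C7 12.6 ± 8.13 and 7.54 ± 3.26 CPM, and CFI 8.05 ± 3.24 and 10.9 ± 3.69 CPM. MS4A2, a chain of the IgE receptor of mast cells, averaged 43.3 ± 19.0 and 47.0 ± 16.2 CPM, with a log2 fold change of 0.12 and a 95% interval from -0.55 to 0.79. The scavenger receptor MSR1 was at 10.7, 8.01, 3.86, 7.04 and 5.70 CPM with beef tallow and 7.24, 23.2, 9.28, 3.03 and 28.6 CPM with coconut oil, with pigs 52 and 55 above all others (log2 fold change 1.04, unadjusted p = 0.0519, exact permutation p = 0.31). These are the same pigs that were highest for LCP1 and PIK3AP1.

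Structural genes of the tissue gave a mixed result. Of 19 tested identifiers of extracellular matrix genes, 10 had a log2 fold change above 0 and 0 had an unadjusted p-value under 0.05, and the basement membrane genes LAMB1 (579 ± 131 and 456 ± 91.6 CPM) and COL15A1 on 1 of its identifiers (52.0 ± 9.83 and 43.7 ± 3.77 CPM; SD, n = 5 each) had the lowest p-values. Smooth muscle markers were lower on average with coconut oil for all 4 tested genes, with a median log2 fold change of -0.80, and 2 of them had an unadjusted p-value under 0.05, where 1.82% of all tested genes were lower at this level. ACTA2, smooth muscle actin, was at 89.0, 42.5, 80.1, 64.8 and 47.3 CPM with beef tallow and 47.7, 29.2, 37.9, 52.7 and 37.7 CPM with coconut oil (log2 fold change -0.65, SE 0.22, unadjusted p = 0.0117, exact permutation p = 0.0476). The actin-binding CNN1 was at 14.8, 4.62, 9.45, 12.3 and 3.09 CPM and 3.75, 3.10, 6.08, 4.54 and 4.56 CPM (log2 fold change -0.96, unadjusted p = 0.0264, exact permutation p = 0.111), and TAGLN averaged 37.7 ± 12.8 and 26.9 ± 5.11 CPM. The ranges overlapped for each. The fourth gene, DES, is also expressed in skeletal muscle, and MYH11, the fifth listed marker, was listed at 0 in all 10 pigs. A listed 0 is not read as absence here, since 18 of 222 identifiers of the metabolic and immune lists were at 0 in all 10 pigs, among them SDHA, a subunit of respiratory complex II that nearly every cell uses. The summed smooth muscle markers ran from 72.4 to 212 CPM with beef tallow and from 70.8 to 104 CPM with coconut oil (exact permutation p = 0.0873). Endothelial markers ran from 729.6 to 1051 CPM with beef tallow and from 718 to 969 CPM with coconut oil, and fibroblast markers from 4255 to 8901 CPM and from 5781 to 10919 CPM, so both overlapped in part.

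Sex separated the same 10 pigs more clearly than the fat did. The first principal component of log2 CPM held 27.8% of the variance and placed all 5 females on one side and all 5 males on the other, while the diets overlapped on each of the first 3 components. In the fit with diet and sex, which was added after the components had been seen, 47 genes (0.459%) differed between males and females and 1111 (10.9%) had an unadjusted p-value under 0.05. A symbol was available for 32 of the 47 called genes. The genes of lowest p-value had none, and the first of them was higher in males by a log2 fold change of 6.31 (edgeR's adjusted p = 4.39e-06). The called genes with a symbol included TNNC2, MYH13, MYL11, NEB and DES, which are known from skeletal muscle. The summed level of the muscle genes ACTA1 and TNNC2, 2 matched of 12 listed markers, was 2.61, 37.6, 289, 1833 and 324 CPM in the beef tallow pigs and 19.5, 818, 77.8, 240.1 and 8.401 CPM in the coconut oil pigs. It was higher in every male than in every female (exact permutation p = 0.00794, adjusted p = 0.159 over 40 tests), and its exact permutation p between the diets was 0.77. TNNC2, a troponin of fast muscle fibres, was higher in males by a log2 fold change of 4.97 (adjusted p = 0.00416), the giant muscle protein gene NEB by 4.04 (adjusted p = 0.0175), and the matricellular CCN2 was lower in males (log2 fold change -1.27, adjusted p = 0.0017). The part of muscle carried along with the fat in these values was not tested. With 3 males of 5 in the beef tallow group and 2 of 5 in the coconut oil group, sex was nearly but not fully balanced, and with sex as a covariate 0 DEGs were found and 518 genes had an unadjusted p-value under 0.05.

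**Figure D5:**
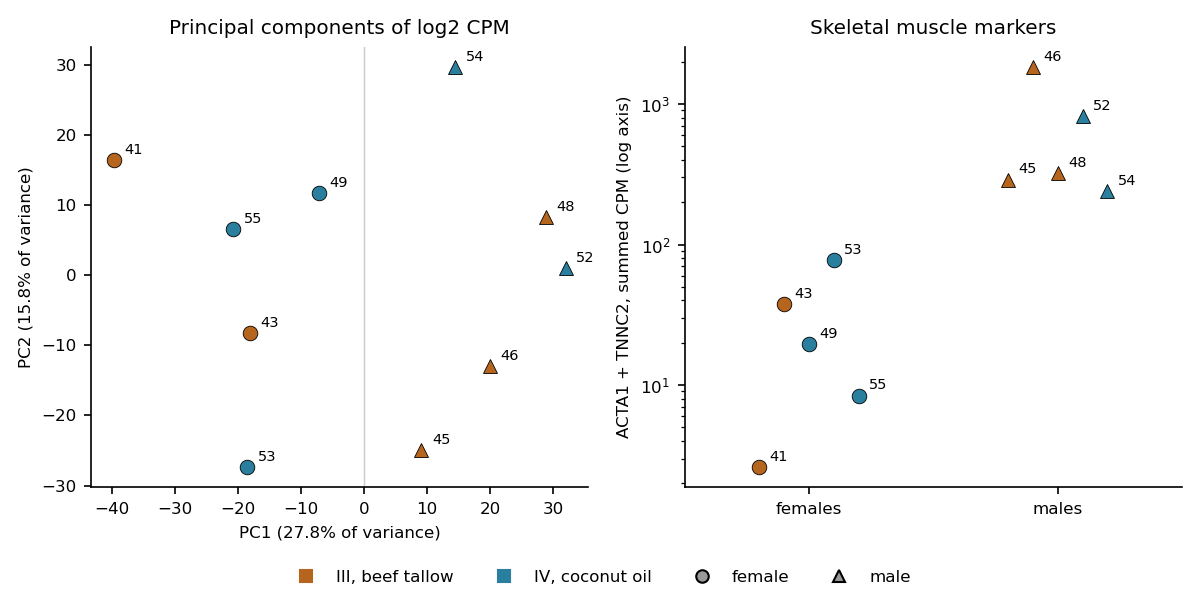
Left, the first and second principal components of log2 CPM for the 10 pigs; right, the summed CPM of ACTA1 and TNNC2 (log axis) in females and males. Colour gives the diet, shape the sex and the number the pig; the 5 females lie left of 0 on the first component and have 2.61 to 77.8 CPM of muscle markers, and the 5 males lie right of 0 and have 240.1 to 1833 CPM.

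Whether the difference between the fats itself differed between the sexes was tested by the diet by sex term. In edgeR 0 genes passed an adjusted p-value under 0.05 and 377 (3.69%) had an unadjusted p-value under 0.05, while DESeq2 called 1. That gene was PON3, a lactonase carried on high-density lipoprotein. In females it was at 74.2 and 67.5 CPM with beef tallow and at 139.6, 176 and 107 CPM with coconut oil. In males it was at 117, 115 and 177 CPM with beef tallow and at 42.8 and 65.4 CPM with coconut oil. All coconut oil females were thus above the beef tallow females and both coconut oil males below the beef tallow males. The interaction on the log2 scale was -2.30 (SE 0.41, adjusted p = 0.000366) in DESeq2 and -2.29 (SE 0.39, adjusted p = 0.842) in edgeR, so the call depended on the test. PON3 was named after its values had been seen.

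Rapeseed oil with cDDGS gave a level to read both fats against. Group IV and group II were separated by 0 DEGs, with 502 of 10062 genes (4.99%) at an unadjusted p-value under 0.05, and group III and group II by 0 DEGs, with 647 of 10410 genes (6.22%). Both fits share the 6 pigs of group II. For KYNU the mean was 6.48 CPM in group II, 6.55 CPM with coconut oil and 2.86 CPM with beef tallow, and for GIMAP4 it was 34.5, 31.4 and 15.7 CPM. For DOCK2 the means were 4.98, 4.65 and 2.27 CPM, and for PTPN6 11.9, 11.4 and 6.12 CPM. The mean of group II on the log2 scale was nearer to coconut oil for 9 of the 12 named genes higher with coconut oil (45.8% of all 5091 tested genes with a log2 fold change above 0) and for 8 of the 12 lower ones (58.0% of 5139). In group I, without cDDGS, the mean was nearer to beef tallow for 11 and 8 of them, where this held for 59.3 and 59.1% of all tested genes. The 24 genes were chosen for their difference between groups III and IV, so these counts are a description. The group I means were 4.13 CPM for KYNU and 15.2 CPM for GIMAP4. The smallest of edgeR's adjusted p-values between groups III and II, 0.0582, missed the threshold. CTCFL (log2 fold change -1.46, beef tallow against group II) and USP53 (1.04) had this value. The USP53 means were 107 CPM in group II, 158 CPM with coconut oil and 222 CPM with beef tallow, so the means with both fats were above that of group II. Group I, with rapeseed oil and no cDDGS, had a USP53 mean of 208 CPM (129 to 323), so the level in group II was not that of rapeseed oil as such.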

How the data were processed

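Total RNA of backfat from 23 pigs was sequenced (stranded total RNA libraries after removal of ribosomal RNA, single-end Illumina reads), 1 library per pig. The authors mapped the reads with TopHat and counted them per Ensembl gene with HTSeq on the Sus scrofa annotation, and deposited raw counts, 1 file per pig, of which the last 5 summary rows (reads outside genes, ambiguous, not uniquely mapped and the like) were kept out of library sizes and tests. How repeat sequencing runs were merged is not given in the sources used here. Groups came from the labels, each pig being a separate animal. No 2 libraries of a group agreed within sampling noise (20 pairs, smallest chi-square per degree of freedom 11.7).

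Counts were filtered (filterByExpr), scaled by TMM and tested with edgeR 4.0.16 (quasi-likelihood, Benjamini-Hochberg) between groups IV and III alone in R 4.3.3. DESeq2 1.42.0 and limma-voom (limma 3.58.1) were alternatives, as were other scalings, filters, covariates (sex, RNA integrity, reads outside genes) and leaving out each pig. The limma-voom fit used sample quality weights, which give more variable libraries less weight, so it differed from edgeR in more than the test. The scripts were tested on simulated data. Single values were compared by exact permutation over the 252 regroupings (scipy 1.17.1). The reference name table paired 11804 of 25322 identifiers with a symbol and tables of the study 81 more, and the symbols differed between them for 8. Named were the 12 genes of lowest unadjusted p-value per direction among tested genes with a symbol, the 2 members of lowest p-value in each metabolic and immune list, and a list of single genes. Other genes (CCN2, ME1, MSR1, TNNC2, SLC25A1, ACTA2, C3, CNN1, TAGLN, NEB, DES, MYH13, MYL11, PON3, PLIN1, LIPE, MGLL, PDK4, RSAD2, MX1, MX2, IFIT1, OAS2, IL6) were named after their values had been seen. The gene lists and the comparison itself were chosen with earlier results of these data known. No sequences are shown, since no sequence table was used here. Some genes that the rule selects are not reported here.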

Additional observations from a re-analysis of the deposited data

Results flagged for a closer look

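Within the 5 pigs of a diet, 170 groups of values were examined for a highest or lowest pig whose gap to the nearest other pig was above 0.71 of the whole range, for genes on the log2(CPM + 0.5) scale (Dixon's 95% value), which chance alone gives in about 5% of groups. Only 6 groups (3.53%) met this, fewer than that share. ACLY was flagged in pig 48 of the beef tallow group, at 1417 CPM against 104 to 211 CPM in the other 4. Pig 48 was also flagged for GPR84, at 0.238 CPM where the other 4 had no read, and for its share of ambiguous reads, 0.654%. CFI, the complement factor I gene, was low in pig 41, at 2.61 CPM. In the coconut oil group, ACADM was high in pig 52, at 192 CPM, and the mast cell gene MS4A2 was low in pig 55, at 20.4 CPM. The part of technical differences between libraries in these values was not tested.

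PON3 was flagged because the difference between the fats differed between the sexes. The diet by sex term was -2.30 on the log2 scale in DESeq2 (adjusted p = 0.000366, the only gene called), with a log2 fold change of 0.99 within females and -1.30 within males in edgeR. In edgeR the same term had an adjusted p = 0.842.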

How the results depend on the processing

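The count of 0 DEGs held in every alternative except the share of reads outside genes as a covariate, which gave 1 (C3). The count of genes below an unadjusted p of 0.05, 421 in the reported test, was 723 with limma-voom, 705 without a filter on low counts and 266 without pigs 46 and 52 (chosen after seeing the muscle marker levels), and leaving out single pigs moved it from 239 (without pig 45) to 678 (without pig 48; 644 without pig 53). The diet by sex test gave 1 gene in DESeq2 against 0 in edgeR. Of 1719 log2 fold changes of 64 named genes under 27 alternatives, 1677 had the direction of the reported value and 42, in 11 genes, did not; the cause was not tested. With the share of reads outside genes as a covariate the value was -0.024 for ADRB1 (0.25 in the reported test), -0.35 for PPARG, -0.13 for MS4A2 and -0.028 for C5AR1, and with sex as well (chosen after seeing the data) -0.11, -0.26, -0.13 and -0.065. With limma-voom it was -0.095 for VSIG4, 0.12 for CPT1A, -0.075 for MS4A2 and -0.065 for C5AR1. With library totals only it was 0.017 for TLR4 and 0.093 for CPT1A, where the median of all tested genes was 0.091. Within females it was -0.12 for ADRB1, -0.22 for ALAS1 and -0.14 for MS4A2. Within males it was -0.13 for CFI, 0.21 for TLR4, -0.064 for VSIG4, 0.21 for CPT1A, -0.053 for FASN on ENSSSCG00000023044 and -0.00014 for C5AR1. Without pigs 46 and 52 it was -0.20 for ALAS1 and -0.51 for ACLY. Leaving out 1 pig at a time gave -0.22 to 0.063 for TLR4, -0.082 to 0.16 for ALAS1, -0.19 to 0.28 for PPARG, -0.079 to 0.33 for VSIG4, -0.084 to 0.17 for CPT1A, -0.016 to 0.36 for MS4A2, -0.33 to 1.57 for ACLY and -0.064 to 0.25 for C5AR1. No paired analysis was possible because the pig numbers are not shared between the groups. With 5 pigs per diet and 3697673 to 7979426 counted reads per pig, low genes rest on few reads, and only the 72.3% of tested genes with a symbol could be named or placed in a list.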
